A study of Mus musculus with 22 samples.

Results

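The 7 genes described here write, keep and remove DNA methylation: the maintenance genes Dnmt1 and Uhrf1, the de novo methyltransferase genes Dnmt3a and Dnmt3b, and the TET dioxygenase genes Tet1, Tet2 and Tet3. They were chosen by name, with earlier results of these data known, from the 24454 gene symbols of the count table. All 7 were among the 12949 genes tested. The study followed the endothelial-to-haematopoietic transition in the aorta-gonad-mesonephros (AGM), the embryonic region in which blood stem cells first form. VE-Cad+ cells of untreated wild-type C57BL/6 mouse embryos were sorted by CD44 and Kit, and each bulk library was made from 25 cells. The CD44Neg cells, labelled endothelial, made up 10 libraries (4 of embryonic day 9.5, 3 of E10, 3 of E11). The CD44LowKitNeg cells, labelled haemogenic endothelium, made up 6 (1 of E9.5, 2 of E10, 3 of E11). The CD44LowKitPos cells, labelled as precursors of stem and progenitor cells, gave 3 libraries (1 at E9.5 and 2 at E10), and the CD44High cells, labelled as stem and progenitor cells, gave 3 libraries at E11.

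After DNA replication the new strand lacks methyl groups, and UHRF1 binds the hemimethylated sites and brings in DNMT1, which copies the old pattern. DNMT3A and DNMT3B place methyl groups on DNA that had none, and both are known from haematopoietic stem cells. The TET enzymes oxidise methylcytosine, which is then diluted through replication or cut out by base excision repair, and TET2 is among the genes most often mutated in blood disorders.

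Between 3912350 and 8657546 counts were obtained per library, and 1.92% to 23.9% of them belonged to the pre-ribosomal RNA Rn45s. A count of 0 was read as up to 3 counts, or 0.348 to 0.816 normalized CPM (counts scaled to a common library total, CPM, with TMM factors), a limit that covers counting error only. The labels do not say whether libraries of a group came from separate embryos, so p-values measure the spread between these libraries. The date in the labels changes with the stage, so stage and date cannot be told apart. In such bulk samples, fewer cells that express a gene and less RNA per cell cannot be told apart either. Transcripts of Cd44, used for sorting, stood at 29.9 ± 19.5 (mean ± SD over 10 libraries, normalized CPM) in CD44Neg and averaged 254 to 268 in the other populations, and Kit averaged 229.7 in CD44LowKitPos against 46.9 to 75.9 elsewhere. Cdh5, which encodes VE-cadherin, had 0 counts in all 3 CD44High libraries although these cells were sorted as VE-Cad+. The summed level of 5 macrophage markers was 721 to 1943 normalized CPM in the CD44High libraries and at most 40.2 in any other, with Adgre1 and C1qa at 0 in every library outside CD44High. In CD44High replicates 20, 21 and 22, mesenchyme markers summed to 106, 71.6 and 0.272 normalized CPM, against at most 23.5 in any other library. Erythroid markers summed to 91.8, 24.8 and 74.3 there, against at most 61.3 in any other. The part of cells of any of these types in the CD44High values below was not tested. The summed level of 8 germ cell markers was 0 to 10.9 normalized CPM over the libraries, highest in CD44LowKitNeg replicate 14. Of these markers, Pou5f1, Prdm14 and Tfap2c were at 0 in every library, so the sums came from the others.

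On the mm10 (GRCm38) build, with GENCODE gene models, Dnmt1 lies on the minus strand of chromosome 9 (chr9:20907209-20959888) and Uhrf1 on the plus strand of chromosome 17 (chr17:56303321-56323486). Dnmt3a (chr12:3806007-3914443) and Dnmt3b (chr2:153649450-153687730) lie on plus strands. Tet1 (chr10:62804570-62908996), Tet2 (chr3:133463679-133545139) and Tet3 (chr6:83362373-83459084) lie on minus strands. Annotated transcripts of the opposite strand overlap Dnmt3a, Dnmt3b, Tet2 and Tet3. The strand setting of the counting is not given in the sources used here, so reads of such partners cannot be told apart from those of the genes. Sequences of the 3 genes called in a comparison below are shown, from RefSeq on GRCm38.p6. Each gives the 5′ to 3′ bases before an annotated start and outside annotated exons. They are chr17:56304063-56304312 on the plus strand for Uhrf1, chr2:153649199-153649449 on the plus strand for Dnmt3b, and chr3:133544391-133544640 on the minus strand for Tet2. Those of Uhrf1 and Tet2 lie inside the gene bounds given above, before a start within the gene, and that of Dnmt3b lies outside them.
Uhrf1: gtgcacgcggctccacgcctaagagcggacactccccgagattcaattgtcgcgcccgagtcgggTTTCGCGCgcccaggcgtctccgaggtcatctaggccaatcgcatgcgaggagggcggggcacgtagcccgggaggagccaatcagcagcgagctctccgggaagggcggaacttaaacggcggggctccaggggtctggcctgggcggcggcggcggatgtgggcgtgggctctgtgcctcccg
Dnmt3b: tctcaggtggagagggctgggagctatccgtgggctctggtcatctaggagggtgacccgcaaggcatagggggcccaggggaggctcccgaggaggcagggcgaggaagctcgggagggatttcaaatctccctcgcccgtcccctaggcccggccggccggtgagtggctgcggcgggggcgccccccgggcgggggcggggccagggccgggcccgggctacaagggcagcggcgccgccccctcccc
Tet2: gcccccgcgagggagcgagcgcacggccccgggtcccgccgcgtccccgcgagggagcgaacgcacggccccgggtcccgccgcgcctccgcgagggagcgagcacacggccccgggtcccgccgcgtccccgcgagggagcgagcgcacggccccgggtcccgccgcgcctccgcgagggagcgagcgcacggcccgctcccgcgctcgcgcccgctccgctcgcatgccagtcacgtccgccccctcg
The capitals mark the letters TTTCGCGC, a motif typical of E2F factors, which drive genes of DNA synthesis. The 300-base windows around these starts held 33 CpG pairs for Uhrf1, 30 for Dnmt3b and 57 for Tet2. The letters TTTCGCGC or TTTGGCGC, on either strand, were present in 0.813% of 32851 promoter windows of the same length. They were present in 5 of 17 windows (29.4%) of the cell-cycle list used below. The share over all windows was not matched for base content, and the Uhrf1 and Dnmt1 windows with a match were 68.3% and 69.7% GC. Among the members they were found in 1 of 2 windows of Uhrf1, the one shown, 185 bases before its start, in 1 of 3 windows of Dnmt1, and in no window of Dnmt3a, Dnmt3b, Tet1, Tet2 or Tet3. The other window of Uhrf1, at the upstream end of the gene, held 12 CpG pairs. A match is a run of letters and not a measured binding site.

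A gene counted as called where its adjusted p was under 0.01 in edgeR's quasi-likelihood test over all genes, with stages matched within each comparison. Between CD44LowKitNeg and CD44Neg, 2 of the 7 members were called, where 9.55% of all genes tested were. Uhrf1 was lower and Tet2 higher in CD44LowKitNeg. Between CD44LowKitPos and CD44Neg, 1 member was called, Dnmt3b, which was higher in CD44LowKitPos, and 4.63% of all genes were called. Between CD44High and CD44LowKitNeg at E11, 1 member was called, Uhrf1, which was higher in CD44High, and 19.5% of all genes were called. DESeq2 (adjusted p = 0.0033) and limma voom (adjusted p = 0.0043) called Tet1 as well, which was lower in CD44High. No member was called by edgeR between CD44LowKitPos and CD44LowKitNeg, where 2.9% of all genes were. There, 4 members and 21.8% of all genes had an unadjusted p under 0.05, and DESeq2 called Tet2 (adjusted p = 0.0073) and limma voom called Dnmt3b (adjusted p = 0.0081). Both tools also called more of all genes than edgeR there, as given in the section on processing. The shares of all genes called in this paragraph are those of edgeR. No member was called by edgeR between CD44High and CD44Neg at E11, where 10.8% of all genes were, while 3 members and 31.2% of all genes had an unadjusted p under 0.05, and 0 members were called by DESeq2 and 1, Tet1, by limma voom (adjusted p = 0.0096). Between CD44High and CD44LowKitPos, edgeR, DESeq2 and limma voom called 0 members against 3.75% of all genes by edgeR, and 2 members and 19.7% of all genes had an unadjusted p under 0.05. No stage holds both of these populations, so population and stage cannot be told apart there. CD44Neg and CD44LowKitNeg each serve in several of these comparisons, which therefore share libraries.

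**Figure D1:**
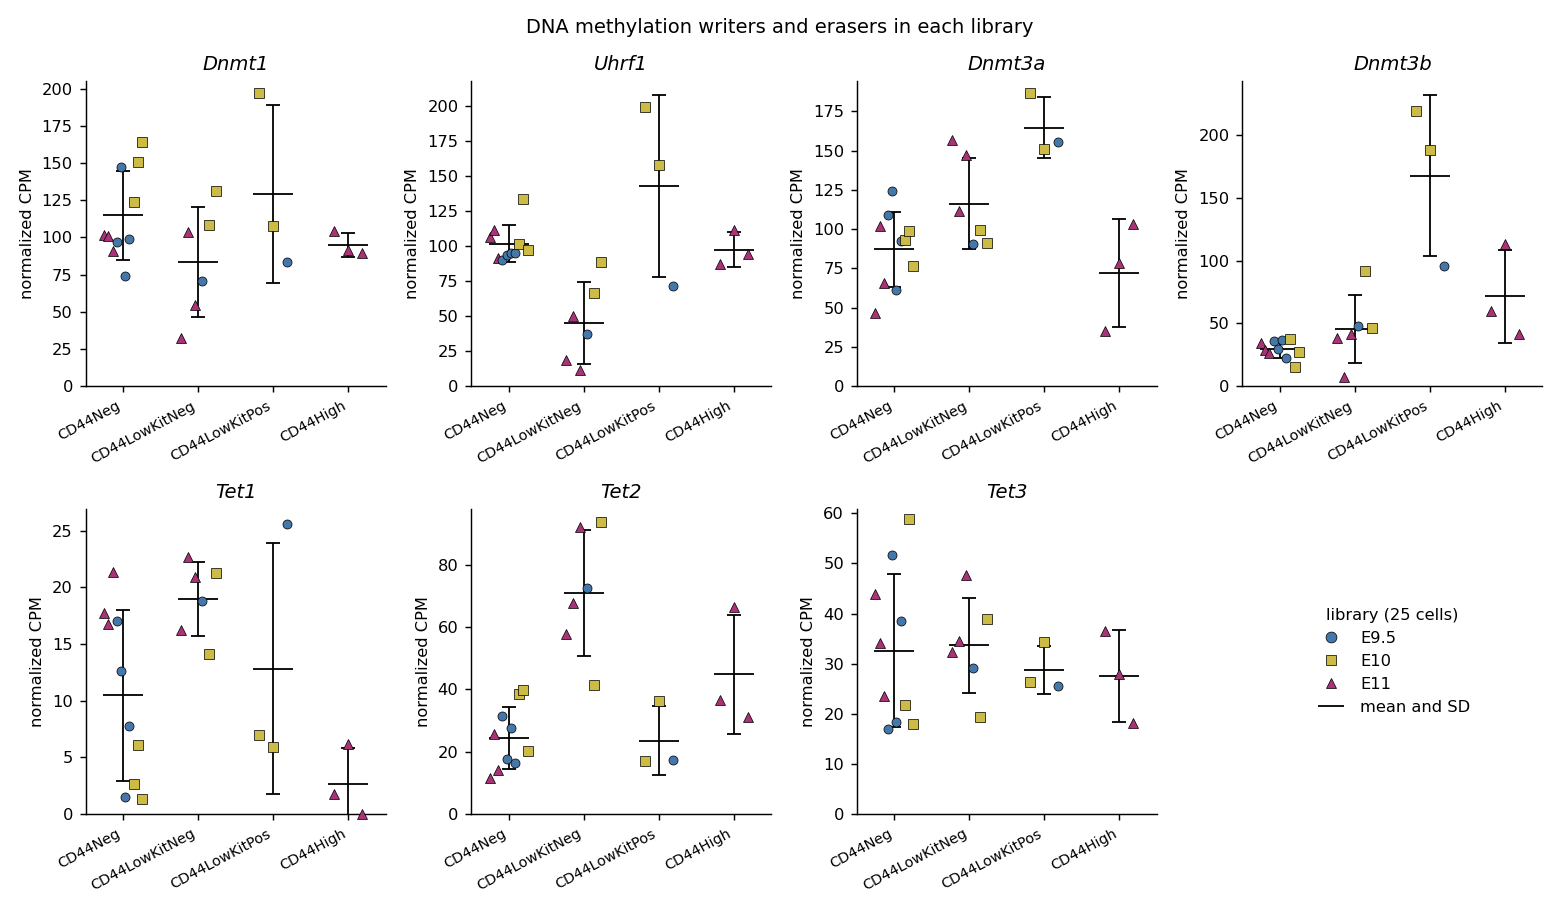
Normalized CPM of each member in every library, 1 panel per gene and 1 column per population, with marker shape and colour giving the stage and the bars giving the mean and SD over all stages. All 6 CD44LowKitNeg libraries lay below all 10 CD44Neg libraries for Uhrf1 and above all of them for Tet2, and the 3 CD44LowKitPos libraries lay above every CD44Neg library for Dnmt3b.

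**Figure D2:**
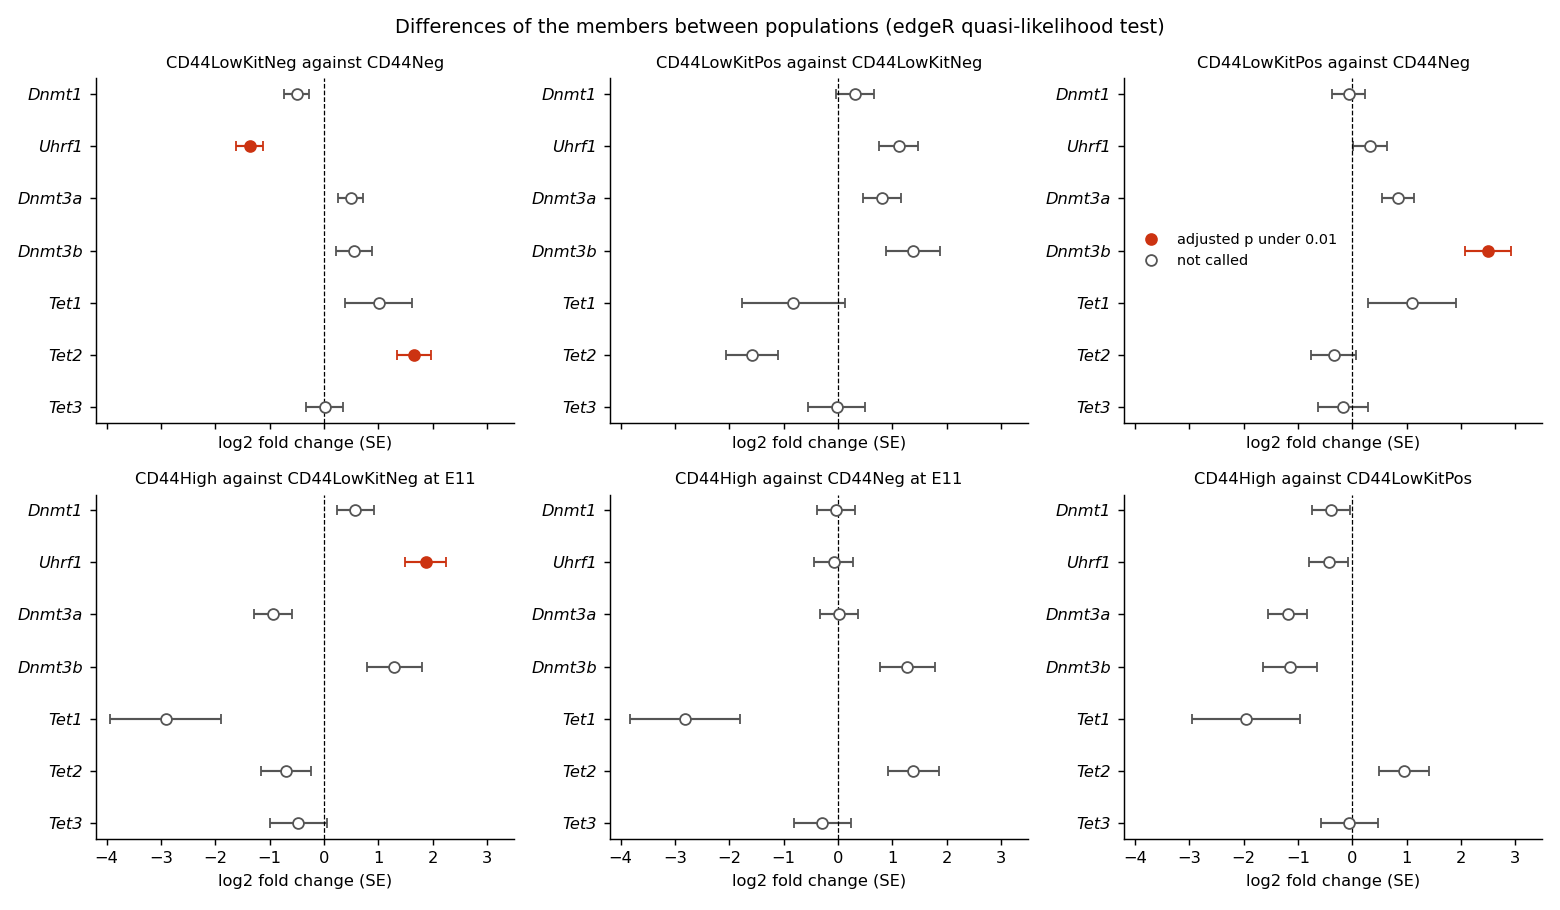
Log2 fold change of each member in the 6 comparisons of populations, with bars of 1 SE, from edgeR's quasi-likelihood test, filled where the adjusted p was under 0.01. Filled points are Uhrf1 (−1.37) and Tet2 (1.66) in CD44LowKitNeg against CD44Neg, Dnmt3b (2.50) in CD44LowKitPos against CD44Neg, and Uhrf1 (1.87) in CD44High against CD44LowKitNeg.

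Among the maintenance genes, Uhrf1 was the one called between populations. In CD44LowKitNeg its normalized CPM was 37.6 at E9.5, 66.3 and 88.9 at E10, and 11.3, 18.4 and 50.1 at E11. In the 10 CD44Neg libraries it ran from 90.4 over a median of 96.2 to 134. Each CD44LowKitNeg library thus lay below the lowest CD44Neg library. The stage-matched difference was −1.37 on the log2 scale (SE 0.25, adjusted p = 7.9e-04), or 2.58-fold lower, with means of 45.4 ± 29.3 (SD, n = 6) and 102 ± 13.2 (SD, n = 10). Of all genes tested, 4.80% had groups that did not overlap in this comparison. This call was kept when any of the 22 libraries was left out, and it was lost when populations were compared without regard to stage (−1.16, adjusted p = 0.0124).

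With stages matched, Uhrf1 was called higher than in CD44LowKitNeg in CD44High and not in CD44LowKitPos. Without regard to stage it was called in CD44LowKitPos (1.65, adjusted p = 0.0087) and not in CD44High. In CD44LowKitPos it was at 71.6 at E9.5 and at 158 and 199 at E10 (normalized CPM). The stage-matched log2 difference from CD44LowKitNeg was 1.11 (SE 0.36, adjusted p = 0.0677), which did not pass the threshold, and the groups overlapped. In CD44High it was at 87.3, 94.1 and 111, above all 3 CD44LowKitNeg libraries of E11, a comparison in which 42.5% of all genes had groups that did not overlap. That difference was 1.87 on the log2 scale (SE 0.37, adjusted p = 7.7e-04), or 3.66-fold. With each library left out it ran from 1.47 to 2.68, the latter without CD44LowKitNeg replicate 12, and it kept its call. Without regard to stage the call was lost (1.10, adjusted p = 0.0433). Against CD44Neg of E11 (91.5, 106 and 112) the CD44High libraries overlapped, with a log2 difference of −0.08 (SE 0.36, adjusted p = 0.924). Ordered by their means over all stages, the populations ran from CD44LowKitPos (143 ± 65.2, n = 3) over CD44Neg and CD44High (97.6 ± 12.4, n = 3) to CD44LowKitNeg, and the values of neighbours overlapped except between CD44High and CD44LowKitNeg of the same stage.

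Dnmt1, the methyltransferase that UHRF1 recruits, did not pass the test in any comparison. Its normalized CPM ran from 73.9 over 101 to 164 in CD44Neg and from 32.3 over 87.2 to 131 in CD44LowKitNeg. The log2 difference was −0.50 (SE 0.23, adjusted p = 0.140), and the groups overlapped. It was at 83.2, 108 and 197 in CD44LowKitPos and at 89.2, 91.6 and 104 in CD44High. The means, 129 ± 59.8 in CD44LowKitPos, 115 ± 29.8 in CD44Neg, 95.0 ± 8.0 in CD44High and 83.4 ± 37.1 in CD44LowKitNeg, were close enough that the ranges of neighbours overlapped. Per kb of exonic length, Uhrf1 stood at 23.9 ± 3.10 and Dnmt1 at 15.6 ± 4.04 normalized CPM in CD44Neg, while in CD44LowKitNeg they stood at 10.7 ± 6.89 and 11.3 ± 5.03. The log2 ratio of Uhrf1 to Dnmt1 per kb was accordingly 0.04 to 1.16 in CD44Neg, −1.48 to 0.23 in CD44LowKitNeg, 0.58 to 1.35 in CD44LowKitPos and 0.54 to 1.07 in CD44High.

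Because replication is the moment at which maintenance is needed, the members were set beside a list of 20 cell-cycle genes. Of these, 10 were called lower and 0 higher in CD44LowKitNeg than in CD44Neg, where 9.55% of all genes were called, with a median log2 difference of −1.08 against −0.07 over all genes tested. In CD44High against CD44LowKitNeg at E11, 16 were called higher and 0 lower beside 19.5% of all genes called, with a median of 2.04 against 0.05 over all genes. Between CD44LowKitPos and CD44LowKitNeg 1 was called higher and 0 lower, beside 2.9% of all genes. Their summed level was 3232 to 5557 normalized CPM in CD44Neg, 4275 to 5392 in CD44LowKitPos and 5646 to 6561 in CD44High. In CD44LowKitNeg it was 933, 1490.0 and 1713 at E11, 2587 and 3590 at E10 and 5323 at E9.5. In 2 CD44LowKitNeg libraries, that of E9.5 and 1 of E10 (3590), the cell-cycle level lay inside the CD44Neg range over all stages, with Uhrf1 levels of 37.6 and 66.3 below that of CD44Neg. The E10 library lay below the 3 CD44Neg libraries of its stage (4392 to 5006) in its cell-cycle level. The E11 libraries were low in both. The part of the cell cycle in the Uhrf1 difference was not tested.

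**Figure D3:**
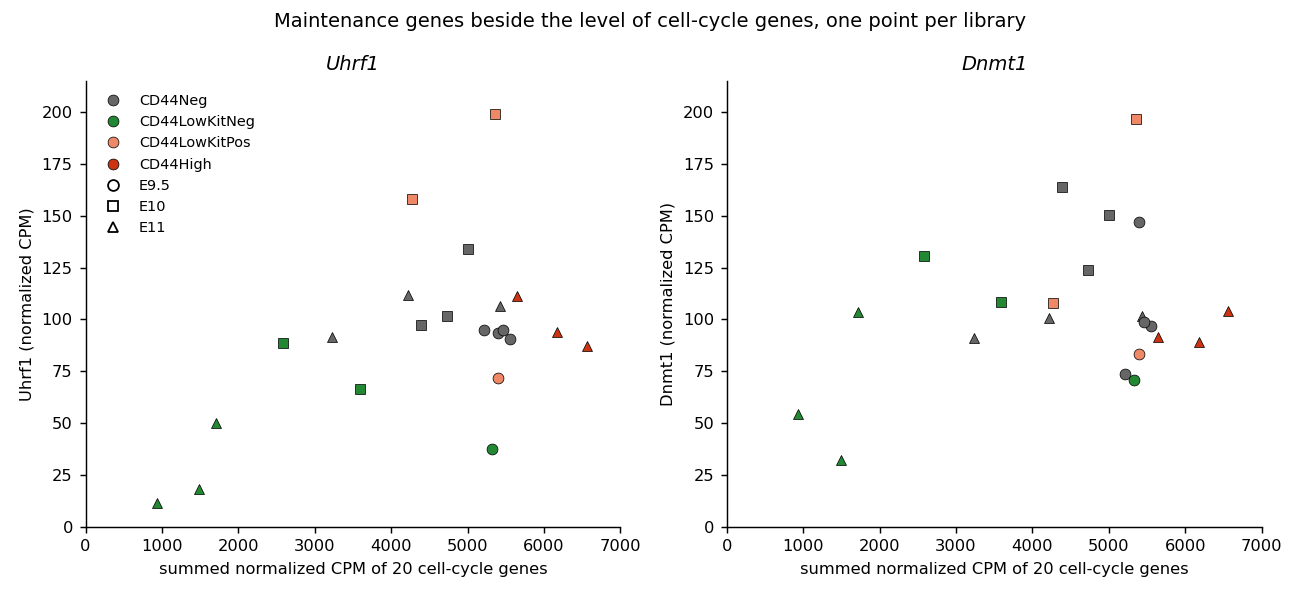
Normalized CPM of Uhrf1 (left) and Dnmt1 (right) against the summed normalized CPM of 20 cell-cycle genes, 1 point per library, coloured by population and shaped by stage. The 3 CD44LowKitNeg libraries of E11 sit lowest on the cell-cycle axis (933 to 1713), while the CD44LowKitNeg library of E9.5 has 5323 there and 37.6 for Uhrf1.

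Of the de novo methyltransferases, Dnmt3b was called higher in CD44LowKitPos than in CD44Neg, and Dnmt3a was called in no comparison. Dnmt3b was at 95.6 normalized CPM at E9.5 and at 188 and 219 at E10 in CD44LowKitPos. In the 7 CD44Neg libraries of these stages it ran from 15 over 29.4 to 37.4, so that the groups did not overlap. The log2 difference was 2.50 (SE 0.43, adjusted p = 7.3e-04), or 5.66-fold. This was the one difference of a de novo methyltransferase called by edgeR with stages matched, and it was kept when any library was left out, with an adjusted p of at most 0.0058. Of all genes tested, 11.7% had groups that did not overlap in this comparison. The summed level of 5 blood markers was 278 to 571 normalized CPM in CD44LowKitPos and at most 29.6 in CD44Neg. That of 5 endothelial markers was 417 to 915 against 1337 to 2334 in CD44Neg of E9.5 and E10, and that of 5 macrophage markers was 14.7 to 21.1 against 1.21 to 11.8. The part of any of them in the difference was not tested. In CD44LowKitNeg of the same stages Dnmt3b was at 47.5, 46.0 and 91.5, below the 3 CD44LowKitPos libraries, with the highest of them close to the CD44LowKitPos library of E9.5. Groups that did not overlap were found for 26.1% of all genes between these populations. The difference of 1.38 on the log2 scale (SE 0.50, adjusted p = 0.103) did not pass the threshold by edgeR. It was called by limma voom (1.45, adjusted p = 0.0081) and by edgeR without regard to stage (1.88, adjusted p = 0.0074).

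Dnmt3b was not called between the endothelial populations. It ran from 7.63 over 43.6 to 91.5 normalized CPM in CD44LowKitNeg, against 15 to 37.4 in CD44Neg, a log2 difference of 0.55 (SE 0.33, adjusted p = 0.276). The CD44High libraries held 41.4, 60.2 and 113 normalized CPM, above all 3 CD44Neg libraries of E11 (26.3 to 34.2) and all 3 CD44LowKitNeg libraries of E11 (7.63, 38.7 and 41.2), the latter by 41.4 against 41.2. Of all genes tested, 37.3% and 42.5% did not overlap in these comparisons. Neither difference passed the threshold (1.27, SE 0.51, adjusted p = 0.0886, and 1.29, SE 0.50, adjusted p = 0.0584, on the log2 scale), and without CD44High replicate 21 they were 0.74 and 0.71. By their means the populations ran from CD44LowKitPos (168 ± 64.2) over CD44High (71.6 ± 37.2) and CD44LowKitNeg (45.4 ± 26.9) to CD44Neg (29.3 ± 7.04), with overlap between CD44LowKitPos and CD44High, between CD44High and CD44LowKitNeg, and between the endothelial populations.

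Dnmt3a shared with Dnmt3b the population with the highest mean, and the order of the others differed. It was at 151, 156 and 187 normalized CPM in CD44LowKitPos, above all 7 CD44Neg libraries (61.4 over 92.9 to 125) and all 3 CD44LowKitNeg libraries (90.8, 90.9 and 99.2) of E9.5 and E10, where 11.7% and 26.1% of all genes did not overlap. The log2 differences were 0.84 (SE 0.30, adjusted p = 0.0899) and 0.81 (SE 0.35, adjusted p = 0.175), and neither was called. At E11 Dnmt3a was at 112, 147 and 157 in CD44LowKitNeg, above CD44Neg (46.9, 65.5 and 102) and CD44High (35.0, 78.6 and 103), where 30.2% and 42.5% of all genes did not overlap. The log2 difference of CD44High from CD44LowKitNeg was −0.94 (SE 0.35, adjusted p = 0.0493), and from CD44LowKitPos it was −1.19 (SE 0.35, adjusted p = 0.0440). Both missed the threshold. Between CD44LowKitNeg and CD44Neg over all stages the difference was 0.49 (SE 0.23, adjusted p = 0.153), with overlap. It was 0.95 (SE 0.35, adjusted p = 0.104) at E11 alone and 0.03 (SE 0.30) at E9.5 and E10 alone, and neither was called. Dnmt3l, which encodes a cofactor of these enzymes without activity of its own, reached at most 0.402 normalized CPM, below the level of 3 counts.

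The balance between Dnmt3b and Dnmt3a differed in its range between populations. Per kb of exonic length, the log2 ratio of Dnmt3b to Dnmt3a was 1.0, 1.93 and 2.02 in CD44LowKitPos and 0.39, 2.23 and 2.48 in CD44High. It was −1.02 to 1.25 in CD44Neg. In CD44LowKitNeg it was 0.72 to 1.59 at E9.5 and E10 and −2.17 to −0.13 at E11, so that the stages did not overlap. The 5 blood markers separated these stages too, at a summed 70.4, 96.2 and 219 normalized CPM in the CD44LowKitNeg libraries of E9.5 and E10 and 4.49 to 12.1 in those of E11. The library with 219 also held the highest Dnmt3b level of CD44LowKitNeg (91.5). Within E11 the ratio was −0.13, −2.17 and −0.31 at blood sums of 4.49, 7.89 and 12.1. The endothelial sum (2116 to 3041 at E9.5 and E10, 4717 to 5050.0 at E11), the cell-cycle sum (2587 to 5323 and 933 to 1713) and the Rn45s share (7.29% to 11.1% and 17.4% to 19.2%) separated the stages of CD44LowKitNeg as well. So did the mesenchyme sum (0 to 5.56 and 8.02 to 23.5) and, narrowly, the erythroid sum (13.8 to 31.9 and 32.2 to 61.3). The part of any of them was not tested, and the ratios are described without a test. The summed level of Dnmt1, Dnmt3a and Dnmt3b per kb was 39.4 to 80.8 in CD44LowKitPos, 20.9 to 33.2 in CD44Neg, 21.4 to 38.5 in CD44LowKitNeg and 26.4 to 39.3 in CD44High.

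Of the erasers, Tet2 was the one called. In CD44LowKitNeg it was at 72.8 normalized CPM at E9.5, 41.3 and 94.0 at E10, and 57.9, 67.8 and 92.3 at E11. In CD44Neg it ran from 11.7 over 23.0 to 39.8, so that every CD44LowKitNeg library lay above every CD44Neg library, in a comparison where 4.80% of all genes did not overlap. The log2 difference was 1.66 (SE 0.31, adjusted p = 9.8e-04), or 3.16-fold, with means of 71.0 ± 20.3 (SD, n = 6) and 24.3 ± 9.97 (SD, n = 10). It was kept when any library was left out, with an adjusted p of at most 0.0052. The summed level of 5 neural markers was 244, 406 and 703 normalized CPM in CD44LowKitNeg of E11 and 121 to 253 at the earlier stages, against 77.3 to 150.2 in CD44Neg. Sox2 and Elavl3 of that list were at 0 in every CD44LowKitNeg library, so the sums there came from its other members, Tubb3, Stmn2 and Nes. The blood markers summed to 4.49 to 219 in CD44LowKitNeg and to 0 to 29.6 in CD44Neg. At E11 the endothelial, mesenchyme and erythroid lists also summed higher in CD44LowKitNeg than in CD44Neg without overlap. Endothelial markers summed to 4717 to 5050.0 against 2368 to 3080.3, and mesenchyme markers to 8.02 to 23.5 against 0.465 to 3.18. Erythroid markers summed to 32.2 to 61.3 against 5.56 to 23.7. Col1a1 and Lum of the mesenchyme list were at 0 in every library of both populations, so its sums came from its other members, Pdgfra, Pdgfrb and Dcn. These lists stand beside the Uhrf1 difference as well, and their part in either was not tested. Within E11 the difference was 2.08 (SE 0.48, adjusted p = 0.0098), and within E9.5 and E10 it was 1.24 (SE 0.39, adjusted p = 0.0547), which did not pass the threshold.

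In CD44LowKitPos the Tet2 level was back in the CD44Neg range, at 16.9, 17.3 and 36.4 normalized CPM. These libraries lay below all 3 CD44LowKitNeg libraries of the same stages, in a comparison where 26.1% of all genes did not overlap. The log2 difference was −1.58 (SE 0.47, adjusted p = 0.0441), which missed the threshold. CD44High held 31.3, 36.6 and 66.6, above the 3 CD44Neg libraries of E11 (11.7, 14.1 and 25.7) where 37.3% of all genes did not overlap, with a log2 difference of 1.38 (SE 0.47, adjusted p = 0.0470). It overlapped with CD44LowKitNeg of E11 (−0.70, SE 0.46, adjusted p = 0.273). By their means the populations ran from CD44LowKitNeg over CD44High (44.8 ± 19) and CD44Neg to CD44LowKitPos (23.6 ± 11.1), where CD44Neg and CD44LowKitPos differed by less than 1 SD.

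Tet1, whose protein has a CXXC domain that TET2 lacks, was low and variable. It was at 14.1 to 22.6 normalized CPM in CD44LowKitNeg, and in CD44Neg it was at 1.49 to 17.1 at E9.5, 1.34 to 6.04 at E10 and 16.7 to 21.4 at E11. The log2 difference was 1.01 (SE 0.62, adjusted p = 0.291), with overlap. CD44LowKitPos held 25.6 at E9.5 and 5.87 and 6.98 at E10. CD44High held 0, 1.78 and 6.12, below all E11 libraries of the other populations. Its log2 difference was −2.91 from CD44LowKitNeg (SE 1.02, adjusted p = 0.0364) and −2.82 from CD44Neg (SE 1.02, adjusted p = 0.0609), and neither was called by edgeR. Without CD44High replicate 21, which had the highest Tet1 level of that group, they were −4.46 and −4.31. DESeq2 and limma voom called the first of them and limma voom the second. Of all genes tested, 42.5% and 37.3% had groups that did not overlap in these comparisons of 3 against 3 libraries. By their means the populations ran from CD44LowKitNeg (19 ± 3.27) over CD44LowKitPos (12.8 ± 11.1) and CD44Neg (10.5 ± 7.54) to CD44High (2.64 ± 3.15), and neighbours in this order overlapped.

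Tet3 was the most even of the erasers by its group means. It averaged 33.6 ± 9.54 normalized CPM in CD44LowKitNeg, 32.6 ± 15.2 in CD44Neg, 28.8 ± 4.80 in CD44LowKitPos and 27.5 ± 9.10 in CD44High, and the ranges of all 4 populations overlapped. Within CD44Neg it ran from 16.9 over 28.8 to 58.8. Its log2 differences between populations were −0.47 to 0.01, with an SE of 0.35 to 0.53, so that changes of such a size could not be told from 0.

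Per kb of exonic length, Tet2 stood above Tet3 in 6 of 6 CD44LowKitNeg libraries and in 4 of 10 CD44Neg libraries, as a description. It did so in 2 of 3 CD44High and 1 of 3 CD44LowKitPos libraries. In CD44Neg Tet3 averaged 1.95 ± 0.913, Tet2 1.44 ± 0.591 and Tet1 0.678 ± 0.488 normalized CPM, with the first pair within 1 SD. In CD44LowKitNeg Tet2 averaged 4.21 ± 1.2, Tet3 2.02 ± 0.572 and Tet1 1.23 ± 0.212. Tet2 made up 53.2% to 60.0% of the summed TET level in the 6 CD44LowKitNeg libraries and 15.4% to 60.9% in the CD44Neg libraries, so the ranges overlapped. In CD44LowKitPos it made up 24.3% to 47.0%, and in CD44High 48.6% to 65.6%. The log2 ratio of the summed TET level to the summed DNMT level per kb was −3.09 to −1.33 in CD44LowKitNeg, −3.77 to −2.22 in CD44Neg, −4.74 to −3.22 in CD44LowKitPos and −3.16 to −2.65 in CD44High. CD44LowKitPos and CD44LowKitNeg did not overlap in this ratio, which is given as a description.

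**Figure D4:**
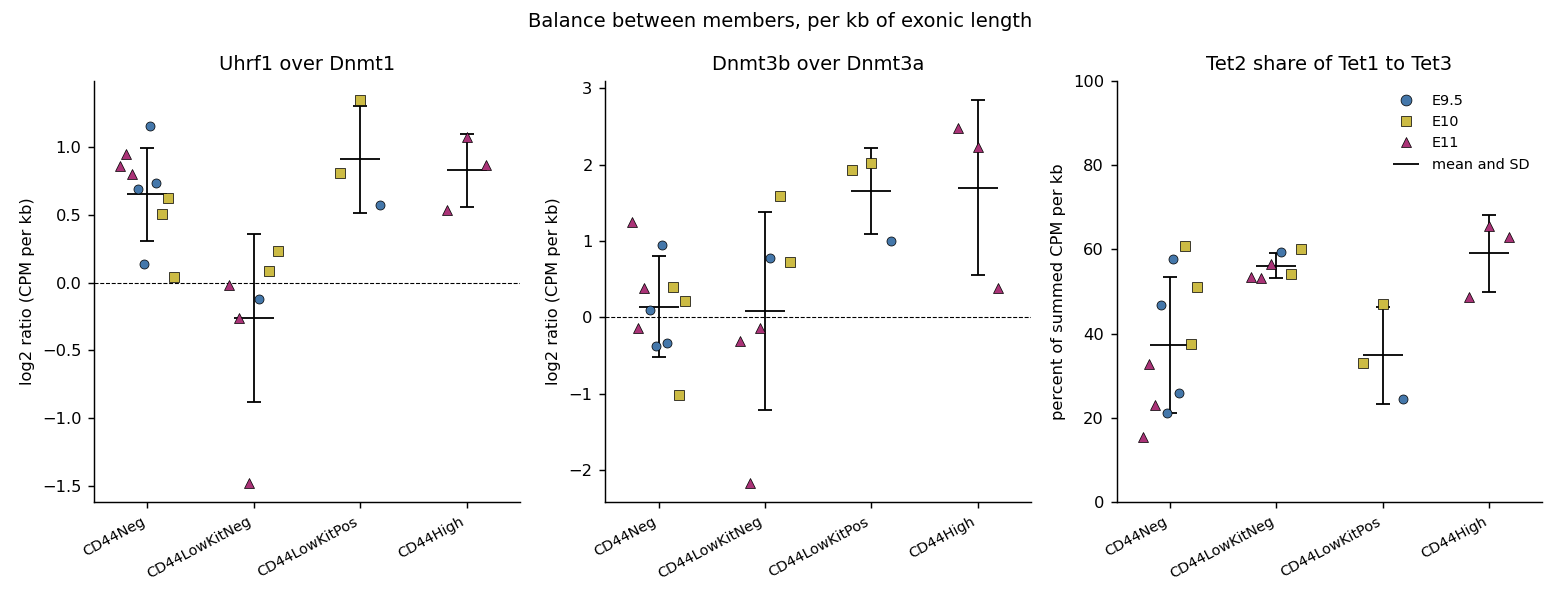
Log2 ratio of Uhrf1 to Dnmt1 and of Dnmt3b to Dnmt3a, and the share of Tet2 in the summed TET level, each per kb of exonic length, with 1 point per library and bars of the mean and SD. Tet2 held 53.2% to 60.0% of the TET level in CD44LowKitNeg, and the ratio of Dnmt3b to Dnmt3a was between 1.0 and 2.02 in CD44LowKitPos.

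The stages were compared within the endothelial populations. Within CD44Neg, between E11 and E9.5, edgeR, DESeq2 and limma voom called 0 members, 0.0463% of all genes were called by edgeR, and 0 members and 13.2% of all genes had an unadjusted p under 0.05. Within CD44LowKitNeg, between E11 and the earlier stages, the same tools called 0 members, against 1.62% of all genes by edgeR, and 2 members, Uhrf1 and Dnmt3b, and 19.3% of all genes had an unadjusted p under 0.05. Uhrf1 had a log2 difference of −1.19 there (SE 0.37, adjusted p = 0.0714) and Dnmt3b of −1.06 (SE 0.50, adjusted p = 0.254). The Rn45s share was 17.4% to 19.2% at E11 and 7.29% to 11.1% before, and with Rn45s left out of the counts the differences were −1.17 and −1.03. Of the cell-cycle list, 4 of 20 were called lower and 0 higher. Without CD44LowKitNeg replicate 12, which had the highest Uhrf1 level of the E11 libraries, Uhrf1 was called (−2.04, adjusted p = 7.9e-04).

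The difference between CD44LowKitNeg and CD44Neg was also taken at E11 and at the pooled earlier stages. At E11 alone 2 members were called, Uhrf1 (−1.95, SE 0.37, adjusted p = 0.0027) and Tet2, against 3.64% of all genes. At E9.5 and E10 alone edgeR called 0 members, against 1.94% of all genes, and 4 members and 24.5% of all genes had an unadjusted p under 0.05. Uhrf1 was at −0.78 there (SE 0.33, adjusted p = 0.141) and Dnmt3b at 1.12 (SE 0.42, adjusted p = 0.106) on the log2 scale. Tet1 was at 1.92 (SE 0.81, adjusted p = 0.145) at these stages and at 0.10 (SE 0.93, adjusted p = 0.998) at E11 alone. The test of whether the difference itself depended on the stage called 0 members by edgeR, DESeq2 and limma voom, against 0.108% of all genes by edgeR, and 1 member, Uhrf1 (−1.17, SE 0.48, adjusted p = 0.383), and 10.7% of all genes had an unadjusted p under 0.05. Without CD44LowKitNeg replicate 12 Uhrf1 was called in this test as well (−2.03, adjusted p = 0.0090).

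The other genes of the pathway were taken from lists of the proteins that work with the members. Their counts are set beside the share of all genes called in the same comparison, and a count near that share is no result about the list. Of 10 tested maintenance partners, 1 fell and 0 rose in CD44LowKitNeg against CD44Neg, where 9.55% of all genes were called. It was Lig1, the DNA ligase of replication (−0.81, SE 0.19, adjusted p = 0.0051). In CD44High against CD44LowKitNeg at E11, where 19.5% of all genes were called, Pcna, the sliding clamp of replication (2.02, SE 0.32, adjusted p = 8.6e-05), and Lig1 (1.70, SE 0.29, adjusted p = 1.6e-04) rose, and 1 partner fell. That partner was Zfp57, a zinc-finger protein that protects methylation at imprinted genes. Zfp57 averaged 81.2 ± 26.1 normalized CPM in CD44Neg, 85.2 ± 12.2 in CD44LowKitNeg, 27.1 ± 16.2 in CD44LowKitPos and 1.07 ± 1.84 in CD44High, where 2 of the 3 libraries were at 0. It fell in CD44High against CD44LowKitNeg (−6.34, SE 0.77, adjusted p = 3.9e-06), against CD44Neg of E11 (−6.19, SE 0.76) and against CD44LowKitPos (−4.60, SE 0.74). Since 2 libraries were at 0, the size of these values depends on the prior count.

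Of 12 tested genes of base excision repair, 2 fell and 0 rose in CD44LowKitNeg against CD44Neg, where 9.55% of all genes were called. They were Parp1, which senses strand breaks (−1.11, SE 0.21, adjusted p = 9.9e-04), and Apex1, the abasic site nuclease (−0.77, SE 0.15, adjusted p = 0.0013). Both rose in CD44High against CD44LowKitNeg at E11 (1.60, SE 0.31, and 0.89, SE 0.22, with 19.5% of all genes called), and Apex1 rose in CD44LowKitPos against CD44LowKitNeg (1.02, SE 0.22, adjusted p = 0.0081, with 2.9% of all genes called). Tdg, the glycosylase that removes the products of the TET enzymes, reached at most 0.151 normalized CPM, below the level of 3 counts. A processed pseudogene, Tdg-ps, is annotated in the same genome, and the handling of reads shared between copies is not given in the sources used here, so the level of Tdg is uncertain.

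Of 7 genes of the methyl donor cycle, 2 rose and 0 fell in CD44High against CD44LowKitNeg at E11, where 19.5% of all genes were called. These were Mat2a, which makes S-adenosylmethionine (1.44, SE 0.21, adjusted p = 3.5e-05), and Ahcy, which clears its product (2.12, SE 0.37, adjusted p = 2.2e-04). Mat2a also fell within CD44LowKitNeg from the earlier stages to E11 (−0.98, SE 0.21, adjusted p = 0.0096), where 1.62% of all genes were called. Of 8 genes tied to TET activity, Idh2, a mitochondrial source of 2-oxoglutarate, fell (−0.75, SE 0.16, adjusted p = 0.0031) and Ogt, a partner of TET proteins, rose (0.70, SE 0.18, adjusted p = 0.0097) in CD44LowKitNeg against CD44Neg, beside 9.55% of all genes. Idh3a rose (1.80, SE 0.25) and Cxxc5, a CXXC protein known to interact with TET2, fell (−2.18, SE 0.38) in CD44High against CD44LowKitNeg. Idh3a fell within CD44LowKitNeg from the earlier stages to E11 (−1.17, SE 0.25, adjusted p = 0.0090), beside the same 1.62%. Cxxc5 fell in CD44High against CD44Neg (−1.69, SE 0.38) and against CD44LowKitPos (−1.93, SE 0.38) as well, where 10.8% and 3.75% of all genes were called. Of 9 readers of methylated or unmethylated CpG sites, edgeR called 0 in any of 9 comparisons, with 9 of 81 unadjusted p-values under 0.05, where 23.4% of those of all genes were, and a lowest adjusted p of 0.0112.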

How the data were processed

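RNA of 25 sorted cells per library was amplified with the Smart-seq2 protocol. The deposited values are raw read counts per gene, without normalization, which the authors produced with htseq-count from RNA STAR alignments of reads trimmed with FASTX. The submitters' processing notes name the mm10 build, FastQC and HTSeq. The annotation and the strand setting are not given in the sources used here. All 22 columns were matched to libraries by their labels.

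Counts were filtered with edgeR 4.0.16 in R 4.3.3 (filterByExpr, minimum count of 10, minimum total of 15), scaled by TMM and fitted with 1 mean per population and stage over all 22 libraries. Comparisons were made with edgeR's quasi-likelihood test (prior count of 0.125), Benjamini-Hochberg adjustment over 12949 genes and a threshold of 0.01. Stages were weighted by the make-up of the smaller population. SE was derived from the F statistic. DESeq2 1.42.0 and limma 3.58.1 (voom) were alternatives, and the steps were tested on simulated data. Exonic lengths came from GENCODE M21, as the union of all annotated exons of a gene, and promoter windows came from RefSeq. Orders and ratios between genes per kb depend on that choice of length. Figures were drawn with Python 3.11.15, pandas 2.3.3 and matplotlib 3.10.9. All members are named. Partner genes are named where called, up to 3 per list and comparison by adjusted p, and for likeness the 3 genes with the highest Pearson correlation of log2 CPM (prior count of 2). The members and lists were chosen with earlier results of these data known. Depth was 3912350 to 8657546 counts per library, and reads carry no molecular identifiers. A marker list is not reported here.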

Additional observations from a re-analysis of the deposited data

Results flagged for a closer look

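Uhrf1 in CD44Neg replicate 9 (E10) was at 134 normalized CPM, while the next of the 10 CD44Neg libraries was at 112. The gap was 0.508 of the range of the group, above the 95% critical value of Dixon's test for 10 samples. Of 21 combinations of member and group tested, 1 stood out in this way, and chance gives about 1 in 20. The difference of Uhrf1 between CD44LowKitNeg and CD44Neg kept its call without this library.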

How the results depend on the processing

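Of 1916 log2 differences recomputed under another setting, 1836 kept their direction and side of the threshold, 5 lost and 9 gained a call, and 66 turned sign. The turned values belonged to 17 differences of at most 0.55 in size, none of which was called. The cause of the changes was not tested.

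The number of members called between CD44LowKitNeg and CD44Neg was 1 with populations compared without stage, over all or over 16 libraries, and 0 at E9.5 and E10 alone. Between CD44LowKitPos and CD44LowKitNeg it was 2 without stage and 1 with DESeq2, with limma voom and at an adjusted p under 0.05. Between CD44High and CD44LowKitNeg it was 0 without stage, 2 with DESeq2 or limma voom and 3 at 0.05. Between CD44High and CD44Neg it was 1 with limma voom and at 0.05, and between CD44High and CD44LowKitPos it was 1 at 0.05. At 0.05 edgeR called 1022 of 12949 genes between CD44LowKitPos and CD44LowKitNeg. For CD44High it called 3945 against CD44LowKitNeg, 2423 against CD44Neg and 1024 against CD44LowKitPos. The counts over all genes that moved most with the tool are given below. With each library left out in turn, it was 0 to 1 for the stages of CD44LowKitNeg and for the stage dependence, where 1 (Uhrf1) came without CD44LowKitNeg replicate 12.

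Turned signs were Tet3 in CD44LowKitNeg against CD44Neg (−0.014 with stage as an additive term, −0.15 at E9.5 and E10) and Dnmt3b (−0.022 at E11). In CD44LowKitPos they were Tet3 against CD44LowKitNeg (0.018 with upper-quartile scaling, 0.0022 with limma voom) and against CD44Neg (0.033 with limma voom), and Dnmt1 against CD44Neg (0.17 without stage). In CD44High against CD44Neg, Dnmt3a was at −0.010 with DESeq2's size factors and Wald test, −0.044 with upper-quartile scaling, −0.040 without Rn45s, −0.020 without a filter, −0.043 with 10 counts in every library, −0.27 without stage, −0.28 with stage as a term and −0.16 with limma voom, while Dnmt1 was at 0.018 and Uhrf1 at 0.19 with stage as a term. Tet3 in CD44High against CD44LowKitPos was at 0.0076 with DESeq2's size factors and 0.0079 with its test, and Dnmt3b between the stages of CD44Neg was at 0.023 with 10 counts in every library.

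With each library left out, the ranges that crossed 0 were, for Dnmt1, −0.049 to 0.52 (CD44LowKitPos against CD44LowKitNeg), −0.40 to 0.17 (CD44LowKitPos against CD44Neg), −0.23 to 0.13 (stages of CD44Neg) and −0.81 to 0.068 (stage dependence). They were −0.39 to 0.32 for Dnmt3a (CD44High against CD44Neg), −0.18 to 0.025 for Dnmt3b (stages of CD44Neg), and −0.034 to 0.35 for Tet1 and −0.25 to 0.53 for Tet2 (stages of CD44LowKitNeg). For Tet3 they were −0.40 to 0.13 (CD44High against CD44LowKitPos), −0.16 to 0.28 (CD44LowKitNeg against CD44Neg), −0.38 to 0.34 (CD44LowKitPos against CD44LowKitNeg), −0.37 to 0.31 (CD44LowKitPos against CD44Neg), −0.11 to 0.46 (stages of CD44Neg) and −0.17 to 0.70 (stage dependence).

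The counts over all genes moved by more than 1.5 times with the tool. DESeq2 called 1909 genes and limma voom 1872 between CD44LowKitNeg and CD44Neg against 1237 by edgeR, 946 and 766 against 375 between CD44LowKitPos and CD44LowKitNeg, and 1103 and 932 against 599 between CD44LowKitPos and CD44Neg. They called 192 and 86 against 6 between the stages of CD44Neg, 608 and 531 against 210 between those of CD44LowKitNeg, and 98 and 9 against 14 for the stage dependence, and DESeq2 called 930 against 486 between CD44High and CD44LowKitPos. Without a filter on low counts edgeR called 729 (CD44LowKitPos against CD44LowKitNeg), 981 (CD44LowKitPos against CD44Neg), 824 (CD44High against CD44LowKitPos), 101 and 509 (stages of CD44Neg and CD44LowKitNeg) and 110 (stage dependence). With at least 10 counts in every library it called 291 (CD44LowKitPos against CD44Neg), 1586, 735 and 208 (CD44High against CD44LowKitNeg, CD44Neg and CD44LowKitPos, against 2519, 1398 and 486), 24 (stages of CD44Neg) and 4 (stage dependence).

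Depth limited Tet1 most, with 0 to 23 counts in the CD44High libraries. The median of all genes moved by 0.12 with DESeq2's size factors in the stages of CD44LowKitNeg and was 0.20 with limma voom in CD44High against CD44LowKitNeg. No paired analysis was possible because each library has a replicate number of its own.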

Other observations

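Over the 22 libraries, the genes whose log2 CPM followed each member most closely were described without a test, since the libraries share populations, stages and depth. Uhrf1 was closest to Aarsd1 (Pearson's r of 0.92), AI506816 (0.90) and the glycolytic gene Gapdh (0.89). Dnmt1 was closest to Nle1 (0.82), to Pold1, the catalytic subunit of DNA polymerase delta (0.81), and to AI506816 (0.79). Dnmt1 and Uhrf1 had an r of 0.78 with each other, the highest among the pairs of members, and Uhrf1 and Tet2 had one of −0.55, the lowest. Dnmt3b was closest to Slco4a1, the calcineurin subunit gene Ppp3r1 and Rbm43 (0.83 to 0.84), and Dnmt3a to Camk2g, Tspan4 and Avpi1 (0.71 to 0.75). Tet2 was closest to Ralgapa1, Fam69a and Erbb2ip (0.77 to 0.80). Tet1 was closest to Gulp1 and Tia1 and to Hbb-y, which encodes an embryonic globin (0.83 to 0.85), and Tet3 to Fan1, Mamstr and Slc35e1 (0.70 to 0.75).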
